A study of Mus musculus with 6 samples.

Results

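Distal mouse chromosome 14 is treated here as a row of neighbouring genes whose transcripts were counted in BV2 microglia. Members were the protein-coding genes of chromosome 14 that start beyond 40 Mb and whose counts, taken as a share of the library total (CPM, the count divided by the total and multiplied by 1e6), averaged at least 2 CPM over the 6 libraries. Of 591 protein-coding genes counted in that span, 235 met the rule, out of 9737 protein-coding genes on all chromosomes that reached the same abundance. Within the span, 23 members start between 90 and 120 Mb, called the far segment here, and 212 lie outside it. The span was singled out because its genes were already known to be lower in the SMEK1 knockdown libraries of these same data. The far segment was set apart within the same choice. Counts, medians, signs and genome ranks for the whole span are therefore a description of that choice and carry no test. The same holds for the contrast between the far segment and the members outside it.

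The study sequenced RNA from BV2, an established mouse microglial cell line. It had 3 libraries labelled SMEK1 knockdown (A, B and C) and 3 labelled WT (A, B and C). Both groups were cultured alike in serum-containing medium with antibiotics, and the labels give no stimulus, time point or knockdown construct. The design text counts LV1 and NL as knockdown derivatives of BV2, and these letters match the titles of the knockdown and the WT libraries, so what the WT cells carried is not given. Any other difference between the cultures cannot be told apart from the knockdown. Nothing in the labels states that the 3 libraries of either group were grown separately, and p-values here reflect library-to-library spread that may be technical.

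A chromosome carries its genes in a fixed order, and neighbouring genes often belong to unrelated pathways. Most of a gene's level is set by its own promoter, enhancers and RNA turnover, so neighbours need not move together. Distal chromosome 14 of the mouse holds, among others, the proteasome activator genes Psme1 and Psme2, the interferon signalling gene Irf9, several nuclear transport receptors and the itaconate-producing enzyme Acod1, which microglia and macrophages induce during inflammation.

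Library totals ranged from 18036591 to 21131557 counts, and log levels correlated at 0.986 to 0.992 (Pearson's r across genes) for libraries sharing a label. Pairs with different labels correlated at 0.947 to 0.961. The targeted gene is listed as Ppp4r3a, another name of Smek1 (chromosome 12, 101039409 to 101083702, minus strand). Knockdown A, B and C held 48, 122 and 94 counts of it, and the WT libraries 335, 227 and 260 (log2 fold change -1.94, SE 0.24, adjusted p = 8.22e-05). Of 14 microglial and macrophage markers, 10 averaged over 10 CPM, while P2ry12 and Cx3cr1, which define resting microglia, had at most 2 and 11 counts in any library. Of 20 markers of neurons, astrocytes, oligodendrocytes, fibroblasts and endothelial cells, 11 had no count in any library and none exceeded 10 CPM. In bulk RNA, fewer cells expressing a gene and less RNA per cell cannot be told apart.

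Most members had lower levels in the knockdown libraries, more so within the far segment than outside it. The 212 members outside had a median log2 fold change of -0.37, a level of 77.3% of WT. In the far segment the median was -0.98, a level of 50.6% of WT, and all 23 members lay below 0 (21 on library totals, where Pou4f1 and Tpm3-rs7 turned positive). The 96 genes of chromosome 14 that start up to 40 Mb and met the same abundance rule had a median of -0.05, and 9406 such genes on the other chromosomes had a median of 0.02. Taken singly, the other 18 autosomes and X had medians from -0.16 (chromosome 19) to 0.38 (chromosome 16). CPM values below are scaled by the trimmed mean of M-values (TMM). Without that scaling, on library totals alone, the 3 chromosome 14 medians were -0.21, -0.83 and 0.11, so that the one for genes up to 40 Mb changed sign while the order was kept. That scaling moved the median of all genes tested by 0.16, about as much as each of these.

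Gene by gene, 132 members were lower at an adjusted p under 0.05, 10 were higher and 93 were not called. On library totals the split was 97 lower and 21 higher. Over all 12269 genes tested, 40.1% were called, 19.6% lower and 20.5% higher, and nothing is read from the members' share because their shift led to their choice. All knockdown libraries lay below all WT libraries for 140 members, against a background of 24.3%, and above them for 12, against 26.7%. The remaining 83 overlapped. Of the members called, 33 were at least 2-fold lower and 6 at least 2-fold higher. Few members averaged under 2 CPM in 1 group: 6 in the knockdown libraries (Fam213a, Ripk3, Zmym5, Diaph3, Kctd12 and Acod1) and 3 in the WT libraries (Arhgef40, Adra1a and Entpd4b). Each of these entered through the other group. They include the lowest log2 fold change of all members, Fam213a (-4.04), and the highest, Entpd4b (3.32), so the ends of the ranking rest partly on this rule. The plot of members by position shows the points called lower spread over the full length of the span.

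**Figure D1:**
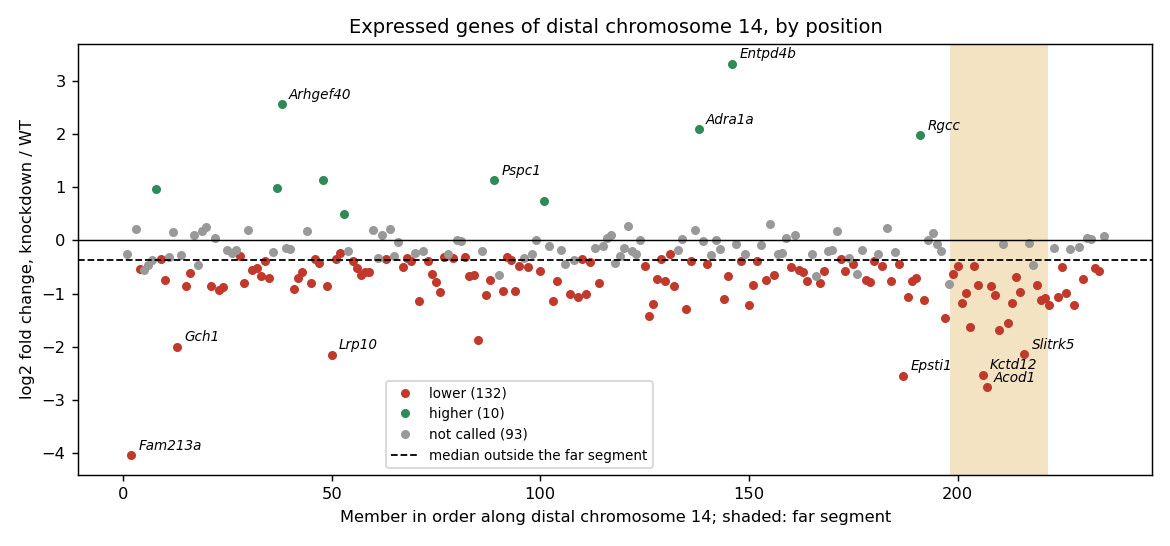
Each point is 1 of the 235 members in chromosome order (x axis), with its log2 fold change of knockdown over WT (y axis), coloured by call. The dashed line is the median of the 212 members outside the shaded far segment, -0.37. All 23 shaded points lie below 0 on this TMM scale (21 on library totals), and the 10 higher members stand among points mostly below 0.

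The shift was present in each knockdown library and not in 1 alone. Outside the far segment the members' median log2 level relative to the WT mean was -0.40, -0.36 and -0.37 in the knockdown libraries A, B and C. The WT libraries had -0.01, 0.00 and 0.00. Within the far segment the same medians were -1.19, -0.86 and -1.06 against 0.07, -0.08 and -0.02. The knockdown libraries were thus apart from the WT libraries in both, with B the least lowered in the far segment. Genes up to 40 Mb had -0.09, 0.00 and 0.00 in the knockdown libraries, which overlap the WT values of -0.01, 0.00 and 0.02.

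Along the chromosome, 10 Mb stretches had medians of -0.37 (25 genes from 40 Mb), -0.34 (81 from 50 Mb), -0.29 (43 from 60 Mb) and -0.44 (47 from 70 Mb). Only 2 members, Diaph3 (-1.46) and the Tudor-domain gene Tdrd3 (-0.83), start between 80 and 90 Mb. Tdrd3 missed the threshold (adjusted p = 0.0598) and was called lower without WT B (-1.07, adjusted p = 0.0175) or knockdown B (-1.13, adjusted p = 0.0186). Stretches from 90, 100 and 110 Mb had medians of -0.81, -1.02 and -0.96 with 4, 13 and 6 genes. The 14 members from 120 Mb had -0.52, between the far segment and the rest, and 8 of them were lower, 0 higher and 6 not called. Among 236 stretches of the genome with at least 10 genes, those of chromosome 14 from 100 and 120 Mb ranked 1 and 2 from the lowest median. Some stretches elsewhere were also low, with -0.48 on chromosome 15 from 50 Mb (30 genes, rank 3) and -0.42 on X from 40 Mb (14 genes, rank 5). The chromosome 14 stretches from 70, 40, 50 and 60 Mb ranked 4, 8, 10 and 11. In the chromosome 14 stretch from 40 Mb the knockdown libraries differed, at -0.66 in A, -0.21 in B and -0.34 in C. In that from 90 Mb they had -0.99, -0.51 and -0.95.

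**Figure D2:**
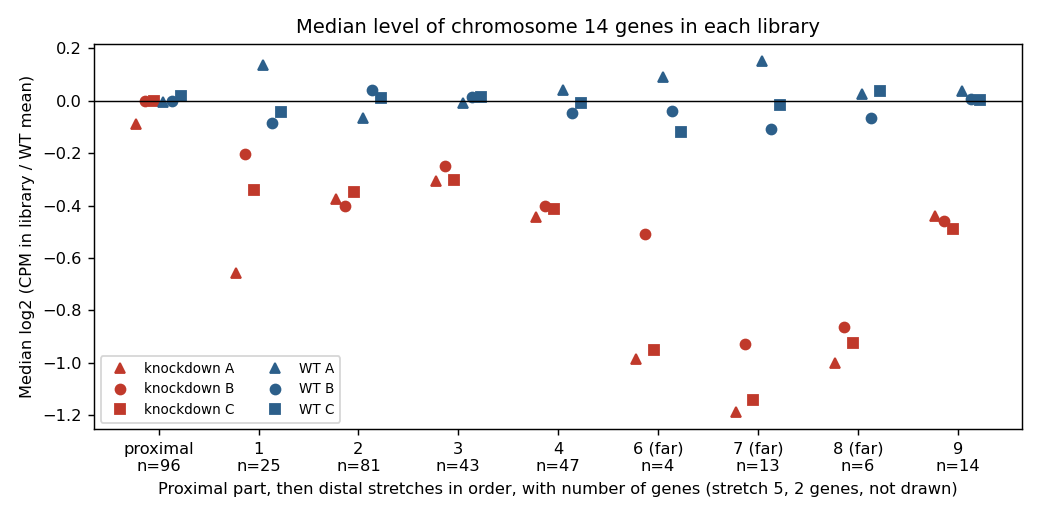
Median log2 of CPM over the WT mean (y axis) for chromosome 14 genes up to 40 Mb and for successive 10 Mb stretches of the distal span (x axis, numbered from 40 Mb, with gene numbers), 1 symbol per library. Knockdown symbols lie near 0 in the proximal part and between -0.21 and -0.66 in stretches 1 to 4. In the far segment they lie between -0.51 and -1.19. WT symbols stay closer to 0 than the knockdown symbols of the distal stretches drawn. Stretch 5, with 2 genes, is not drawn, and its WT medians were 0.48, -0.80 and 0.03.

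Summed over genes, the far segment gave 269, 308 and 292 CPM in the knockdown libraries and 530, 514 and 515 in the WT libraries. The knockdown sum, 290 ± 19.6 (SD, n = 3), was 55.8% of the WT sum of 520 ± 8.66 (SD, n = 3). Outside the far segment the sums were 20066 ± 985 and 24839 ± 1775 (SD, n = 3 each), or 80.8% of WT. From 120 Mb the sums were 380 ± 15.6 and 646 ± 8.59 (SD, n = 3 each), or 58.9%. On this scale, sums beyond the span were also lower in the knockdown libraries. Chromosome 14 genes up to 40 Mb gave 9547 ± 315 and 10414 ± 551 (SD, n = 3 each), or 91.7% of WT. The 9406 genes of other chromosomes gave 918850, 863492 and 900070 CPM in knockdown libraries and 951524, 1.03695e+06 and 998762 in WT libraries. The percentages of the span are to be read against these lower baselines, not against equal sums.

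At the edges of the rule, values were as follows. Just beyond the 40 Mb limit, Tspan14 had a log2 fold change of -0.27 and Fam213a of -4.04, and the nearest genes before it, Ghitm and Ccser2, had 0.14 and -0.01. Tspan14 was called lower without WT A (-0.32, adjusted p = 0.035) or knockdown A (-0.34, adjusted p = 0.0182). Just inside the abundance limit, Zmym5 averaged 2.31 CPM and had -0.66. Just outside it, Pibf1 averaged 1.49 CPM and had -1.73, and Rab2b averaged 1.47 CPM and had 0.07.

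To separate genes that followed the shift from genes that departed from it, each was also tested against the median of -0.37 in place of 0, in edgeR's quasi-likelihood fit over all genes. By this measure 61 members lay below the median, 39 above it and 135 did not differ from it. Over all genes tested, 7.19% lay below that value and 50.2% above it. Combining both tests, 71 members were lower than WT without differing from the median, and 64 differed from neither value, so these could not be placed. A further 29 did not differ from WT but lay above the median, and 10 were higher than WT and above the median. None was called above the median while lower than WT. With SEs such as 0.07 for Acin1 and 0.10 for Tspan14, few genes between 0 and -0.37 could be called against both, so nothing is read from this. A gene that does not differ from the median is not shown to equal it.

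In the far segment, the 3 lowest members had different roles. Acod1 (103046977 to 103056573, plus strand) makes itaconate, a metabolite that restrains inflammatory macrophages. It had 1.2, 1.42 and 1.31 CPM in the 3 knockdown libraries and 8.57, 8.29 and 9.94 in the WT libraries, 14.7% of WT (log2 fold change -2.76, SE 0.21, adjusted p = 1.69e-06). Knockdown levels were thus far under every WT level, though Acod1 was a low-abundance transcript in both groups. Kctd12 (102976581 to 102982637, minus strand), an auxiliary subunit of GABA-B receptors, had 1.15, 1.73 and 1.62 CPM against 11.2, 7.04 and 7.94 (-2.53, SE 0.25, adjusted p = 1.55e-05). Slitrk5 (111675097 to 111683141, plus strand), a transmembrane protein best known from neurons, had 4.39, 5.90 and 4.78 CPM against 22.8, 21.2 and 22.6 (-2.14, SE 0.15, adjusted p = 1.23e-06).

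Kctd12 and Acod1 are neighbours, and Mycbp2, a large ubiquitin ligase further along, was reduced less. It had 8.09, 11.3 and 7.4 CPM in the knockdown libraries and 33.5, 24 and 28.3 in the WT libraries (-1.68, adjusted p = 2.54e-05). Every knockdown value of Mycbp2 was again below every WT value.

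The other far-segment members called lower ranged from -1.63 to -0.47. Tbc1d4, a Rab GTPase-activating protein of glucose transporter traffic, had -1.63, and Rnf219, a RING-finger protein, had -1.56. Bora, which activates the mitotic kinase Aurora A, had 5.64, 8.66 and 6.54 CPM against 16.5, 14.7 and 16 (-1.18). Rbm26 had -1.18, the multidrug transporter Abcc4 -1.12, the endoplasmic reticulum co-chaperone Dnajc3 -1.08 and the growth-factor signalling inhibitor Spry2 -0.97. The ubiquitin hydrolase Uchl3 had -0.84, the receptor-like Gpr180 -0.85 and Ndfip2, an adaptor of ubiquitin ligases, -0.69. These 10, the 4 genes described before them and 2 members not described here were also below the median of the members outside.

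Another 4 far-segment members were lower than WT without differing from that median. Mzt1, a small subunit of microtubule-nucleating complexes, had 15.5, 16.4 and 15.6 CPM against 22.4, 22.3 and 21.3 (-0.47, adjusted p = 0.0059). Dis3, the exosome ribonuclease, had -0.98 (adjusted p = 0.0129) and overlaps Pibf1, so reads of the pair cannot be told apart without strand. Commd6 had -0.48 (adjusted p = 0.0307), with groups that overlapped, and Rpl36a-ps1, annotated as coding but named as a ribosomal protein pseudogene, had -0.64 (adjusted p = 0.0486). The Dis3 call ended on library totals (adjusted p = 0.0578), and so did those of Commd6 (0.116) and Rpl36a-ps1 (0.126). Leaving out 1 library ended the Commd6 call without WT B (adjusted p = 0.0592), WT C (0.162), knockdown A (0.0694) or knockdown B (0.0878). For Rpl36a-ps1 it ended without WT A (0.116), WT B (0.132), knockdown A (0.06), knockdown B (0.0745) or knockdown C (0.18).

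A further 3 far-segment members were not called lower. Pou4f1, a transcription factor of sensory neurons, had 7.47, 7.95 and 6.27 CPM in the knockdown libraries and 7.39, 9.12 and 6.17 in the WT libraries (-0.06, adjusted p = 0.811). Its groups overlapped, and it did not differ from the median of the members outside either. Tgds, a sugar-nucleotide dehydratase, had 6.00, 6.13 and 7.76 CPM against 10.6, 8.65 and 8.12 (-0.46, adjusted p = 0.063), with every knockdown value below every WT value. Tpm3-rs7 had 49.4, 61.2 and 51.2 CPM against 53.3, 57.2 and 57.9 (-0.06, adjusted p = 0.675) and lay above the median by 0.32 (adjusted p = 0.0161). Its name marks it as a copy related to Tpm3 on another chromosome, and how reads were shared between the copies is not given, so its value is uncertain.

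**Figure D3:**
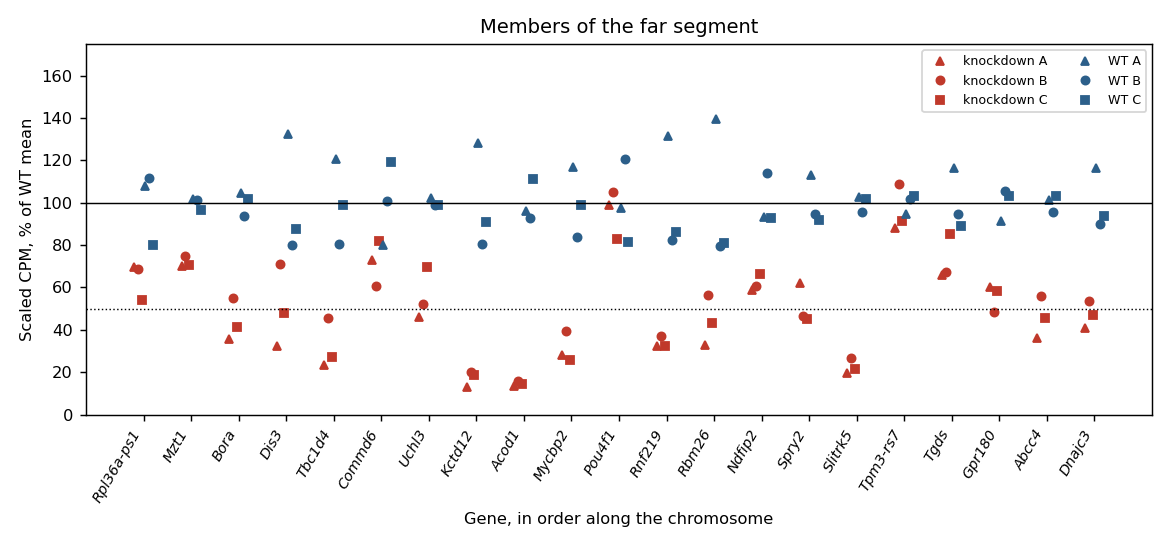
TMM-scaled CPM as a percentage of the gene's WT mean (y axis) for 21 of the 23 members of the far segment in chromosome order (x axis), 1 symbol per library; the dotted line marks 50%. Red knockdown symbols lie below the blue WT symbols for 18 genes and overlap for Commd6, Pou4f1 and Tpm3-rs7.

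Outside the far segment, the lowest members were spread along the span. Fam213a (40993740 to 41013788, minus strand), a thioredoxin-like redox protein, had 1.36, 1.29 and 1.13 CPM in the knockdown libraries and 19.4, 21.8 and 21.1 in the WT libraries. At 6.07% of WT it was the lowest of all 235 (log2 fold change -4.04, SE 0.18, adjusted p = 2.53e-08). Epsti1 (77904239 to 78002657, plus strand), an interferon-induced gene, had 7.10, 6.44 and 6.32 CPM against 37.6, 41.8 and 36.2 (-2.54, SE 0.12, adjusted p = 5.96e-08). Lrp10 (54464137 to 54471497, plus strand), a lipoprotein receptor family member, had 28.2, 26.6 and 24.3 CPM against 118, 111 and 121 (-2.15, SE 0.09, adjusted p = 1.43e-08). All were far beyond the median of -0.37, in different places on the chromosome.

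Gch1 (47153895 to 47189413, minus strand), the first enzyme of tetrahydrobiopterin synthesis, a cofactor of inducible nitric oxide synthase, had 10.9, 9.10 and 8.85 CPM against 33.9, 44.9 and 36.5 (-2, SE 0.14, adjusted p = 1.09e-06). The kinesin Kif13b had 9.24, 11.9 and 9.79 CPM against 27.7, 24.8 and 31.0 (-1.43, adjusted p = 1.52e-05). Clu (65968483 to 65981547), the secreted chaperone clusterin, had 92.3, 81.2 and 79.2 CPM against 207, 205 and 203 (-1.29, adjusted p = 4.34e-07). Knockdown and WT values did not overlap for any of these. The immediate early transcription factor Egr3 had -1.22 (adjusted p = 0.000158), and Ubac2, a membrane protein of the endoplasmic reticulum, 31.3, 29.4 and 29.8 CPM against 69.8, 75.1 and 65.6 (-1.22, adjusted p = 1.34e-06).

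Among the members with the highest level per length, behaviour differed. Lgals3, the secreted lectin galectin-3 that activated microglia make, averaged 4192 ± 380 CPM in the knockdown and 3884 ± 317 in the WT libraries (SD, n = 3 each). Its groups overlapped (0.11, adjusted p = 0.412), and it lay above the median shift by 0.48 (adjusted p = 0.00164). On library totals Lgals3 was called higher (0.269, adjusted p = 0.00736). Ctsb, the lysosomal protease cathepsin B, averaged 4867 ± 376 and 5345 ± 516 CPM (SD, n = 3 each; -0.14, adjusted p = 0.319). Tpt1, the translationally controlled tumour protein, averaged 2153 ± 151 and 3679 ± 513 CPM (SD, n = 3 each) and was lower (-0.77, adjusted p = 0.000232). The proteasome subunit Psmb5 (-0.39, adjusted p = 0.00304), the ubiquitin-like Nedd8 (-0.32, adjusted p = 0.00929) and the DNA repair nuclease Apex1 (-0.56, adjusted p = 0.00116) were lower without differing from the median. The Nedd8 call ended on library totals (adjusted p = 0.0535).

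The 10 members called higher were spread among members that mostly lay below 0. Rgcc (79288756 to 79301645, minus strand), a regulator of the cell cycle, had 19.8, 17.5 and 16.8 CPM in the knockdown libraries and 4.91, 4.47 and 4.29 in the WT libraries, 396% of WT (1.98, SE 0.15, adjusted p = 2.2e-06). Adra1a (66635251 to 66771168, plus strand), the alpha-1A adrenergic receptor, had 8.61, 8.30 and 9.34 CPM against 2.05, 2.03 and 2.06 (2.09, SE 0.19, adjusted p = 6.9e-06). Arhgef40, a guanine nucleotide exchange factor of small GTPases, had 3.76, 4.93 and 3.93 CPM against 0.539, 0.596 and 1.00 (2.56, SE 0.30, adjusted p = 4.86e-05) and overlaps Zfp219. For all 3 the groups were well apart.

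Pspc1, a paraspeckle RNA-binding protein, had 24.2, 31.5 and 22.4 CPM against 13.8, 11.2 and 10.8 (1.13, adjusted p = 0.000184). Slc7a7, an amino acid transporter subunit expressed in macrophages, had 6.84, 7.68 and 7.94 CPM against 3.18, 4.05 and 2.94 (1.14, adjusted p = 0.00075) and overlaps Oxa1l. The zinc transporter Slc39a2, which overlaps Mettl17, had 59.0, 47.2 and 50 CPM against 23.7, 27.7 and 27.6 (0.98, adjusted p = 4.41e-05). Knockdown values exceeded WT values without overlap in each. Cdkn3, a phosphatase of cyclin-dependent kinases, had 14.1, 16.3 and 14.7 CPM against 7.23, 7.75 and 8.23 (0.96, adjusted p = 0.000325).

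The remaining calls in this direction were less secure. Ajuba, a LIM-domain scaffold, had 26.5, 18 and 21.1 CPM against 13.8, 17.2 and 15.3 (0.50, adjusted p = 0.0246). Its call ended without WT A (adjusted p = 0.0726), WT C (0.078), knockdown A (0.0801) or knockdown C (0.0545). Phf11a had 4.18, 4.17 and 2.80 CPM against 2.10, 2.03 and 2.53 (0.74, adjusted p = 0.032), and leaving out any 1 library other than knockdown C ended its call (adjusted p = 0.0533 to 0.0858). Entpd4b had 9.29, 0.444 and 3.75 CPM against 0.647, 0.239 and 0.412 (3.32, SE 0.85, adjusted p = 0.0086). Its groups overlapped, its call ended without knockdown A (2.25, adjusted p = 0.0504), and reads could be split between it and its near copy Entpd4, so it is uncertain.

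**Figure D4:**
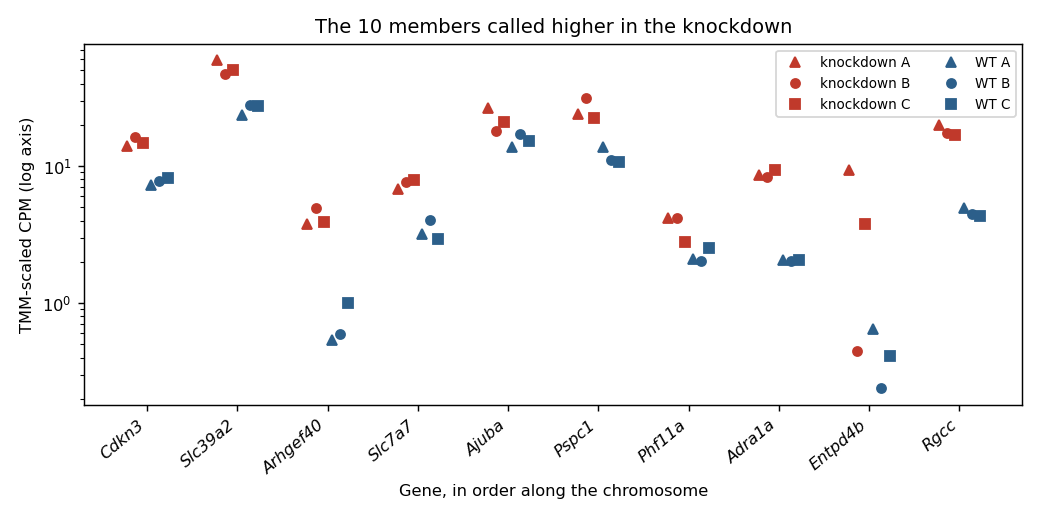
TMM-scaled CPM on a log axis (y) for the 10 members called higher, in chromosome order (x), 1 symbol per library. Knockdown symbols lie above the WT symbols for 9 genes, and for Entpd4b knockdown B falls among the WT libraries.

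Of these 10, 7 had neighbours on both sides with a log2 fold change below 0, and 3 had 1 such neighbour. Slc39a2 and Arhgef40 are next to each other. Since 83.4% of all members lay below 0, such neighbours are common in this span, and nothing is read from these counts. Only Slc7a7 and Rgcc had both neighbours called lower, and Slc39a2, Arhgef40 and Adra1a had no neighbour called lower. The longest unbroken run of members below 0 held 36 genes, from Elf1 (start 79481194) to Tm9sf2 (start 122107038), and so spanned the whole far segment. The next runs held 15 genes, from Zfhx2 to Nedd8, and 14 genes, from Phf11b to Spryd7. On library totals these runs were shortened or broken, since members within them, such as Elf1, Pou4f1, Thtpa and Phf11b, turned positive. Ppp3cc, a catalytic subunit of calcineurin, was among the 8 highest members with a mean of at least 5 CPM without being called (0.31, adjusted p = 0.163), and it was called higher without WT B (0.49, adjusted p = 0.0425) or on library totals (0.48, adjusted p = 0.0386). The last member of the chromosome, Tmtc4, had 0.08 (adjusted p = 0.793).

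Grouped by role, members called lower stood in each of 10 lists. Their counts are to be read beside the shares of all members, 56.2% lower and 4.26% higher. Over all genes tested the shares were 19.6% and 20.5%. Nothing is read from the counts of single lists. The role lists were compiled from general knowledge with earlier results of these data known, and their medians are set beside the -0.41 of all members and the 0.01 of all genes tested. The lists are broad and hold genes better known for other roles. Examples are Clu in the lysosome list, Kctd12 in the ubiquitin list and Slc7a7 in the immune list. Of 27 interferon and innate immune genes, 19 were lower, 2 higher and 6 not called, with a median of -0.60, and 9 lay below and 4 above the median shift. Psme1 (55578123 to 55581529), a subunit of the interferon-inducible proteasome activator, had 131, 118 and 130 CPM against 250, 313 and 279 (-1.15, adjusted p = 3.46e-06). Its partner subunit Psme2, close by, had 141, 123 and 132 CPM against 150, 192 and 179 (-0.40, adjusted p = 0.0073). Irf9, the DNA-binding subunit of the interferon-activated complex ISGF3, had 38.3, 35.9 and 39.5 CPM against 59.3, 68.6 and 68.3 (-0.79, adjusted p = 5.13e-05). Psme1 lay below the median shift (adjusted p = 3.44e-05), and no difference from it was found for Psme2 (adjusted p = 0.854); the difference between the partner subunits was not tested.

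Other immune members were mixed. The necroptosis kinase Ripk3 had 1.25, 0.755 and 1.26 CPM against 3.34, 4.47 and 4.23 (-1.88, adjusted p = 0.000258). Of the Phf11 family, named for a PHD-type zinc finger, Phf11d had 7.47, 7.28 and 8.76 CPM against 17.9, 17.2 and 16.6 (-1.14, adjusted p = 8.72e-05). Its neighbour Phf11b had 11.5, 12.2 and 12.5 CPM against 12.1, 13.9 and 12.9 (-0.11, adjusted p = 0.57), and Phf11a was higher, as given above. These 3 neighbours thus showed 3 calls, and, as close relatives whose reads the counting could split, they are uncertain. Lcp1, the leukocyte actin-bundling protein L-plastin, had 255, 340 and 271 CPM against 430, 359 and 395 (-0.45, adjusted p = 0.0073). Trim35, a ubiquitin ligase of the tripartite motif family, had 0.19 (adjusted p = 0.161) and lay above the median shift by 0.57 (adjusted p = 0.000721). It was called higher without knockdown B (0.28, adjusted p = 0.0392) and on library totals (0.35, adjusted p = 0.00546), and on library totals the Lcp1 call ended (adjusted p = 0.104).

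Promoter windows were searched for GAAA, then any 2 bases, then GAAA, on either strand (TTTC, any 2 bases, TTTC when read on the other). This is the core of interferon-stimulated response elements, which ISGF3 and other interferon regulatory factors bind. RefSeq windows on build GRCm38.p6, from 250 bases before to 50 after the gene start, were found for 166 of the 235 members. The letters occurred in 5 of them (3.01%), against 1079 of 27025 genes with a window (3.99%), so their share was not above that of all genes. The 30-base stretches around each match are shown on the gene's strand, 5′ to 3′, to let the matches be compared with the calls, with the matched letters in capitals.
Psme1: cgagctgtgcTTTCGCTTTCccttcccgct
Parp4: tttacactctGAAAAAGAAAGTGAAAgtcc
Phf11a: cacatttagaGAAAAAGAAActagaaccta
Phf11b: cacatttagaGAAAAAGAAActagaaacta
Commd6: cccacagaacTTTCCCTTTCccagtatctc
The stretches lie at chr14:55578493-55578522 (plus strand), chr14:56575459-56575488 (plus), chr14:59297532-59297561 (minus), chr14:59341361-59341390 (minus) and chr14:101640563-101640592 (minus). In Parp4 a pair of matches overlaps. The match of Phf11a and that of Phf11b have the same letters, yet Phf11a was higher and Phf11b was not called. Psme1, Parp4 and Commd6 were lower. Among members with a window, the letters occurred in 3 of 92 lower, 1 of 9 higher and 1 of 65 not called. A match describes these letters only, and windows without one show nothing about any factor.

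All 5 nuclear transport receptors were lower, with a median of -0.96. Ipo5 (120911224 to 120947999), an importin, had 91.5, 124 and 100 CPM against 236, 203 and 220 (-1.06, adjusted p = 2.14e-05). Ipo4, another importin, had 32.3, 27.9 and 29.0 CPM against 57.4, 58.2 and 60.2 (-0.98, adjusted p = 9.69e-06). The exportins Xpo4 and Xpo7 had -0.96 (adjusted p = 0.00585) and -0.56 (adjusted p = 0.00867), and the importin-alpha Kpna3 had -0.80 (adjusted p = 0.0158) with overlapping groups. The 5 genes lie in 5 separate places of the span. The Kpna3 call ended without WT A (adjusted p = 0.0576), WT C (0.0525), knockdown A (0.0611) or knockdown C (0.0524). On library totals the calls of Xpo7 (adjusted p = 0.0842) and Kpna3 (0.0752) ended.

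Of 17 mitochondrial members, 11 were lower, 0 higher and 6 not called (median -0.44). The ribosomal protein Mrpl52 had -0.86 (adjusted p = 4.38e-05) and the inner-membrane carrier Slc25a30 -0.75 (adjusted p = 0.00011). Micu2, a gatekeeper of the mitochondrial calcium uniporter, had 55.2, 64.8 and 54.1 CPM against 54.4, 62.4 and 57.5 and lay above the median shift by 0.37 (adjusted p = 0.00609). Of 19 endoplasmic reticulum and secretory members, 14 were lower and 5 not called (median -0.46). They included Dad1, a subunit of the enzyme that adds N-glycans (-0.79, adjusted p = 4.79e-05), and Tm9sf2, a membrane protein of endosomes and Golgi (-0.73, adjusted p = 9.86e-05). Reep4, which clears endoplasmic reticulum from mitotic chromosomes, had 0.04 (adjusted p = 0.698) and was called higher on library totals (0.203, adjusted p = 0.0294).

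Of 23 chromatin and transcription members, 14 were lower and 9 not called (median -0.60). Tox4, an HMG-box protein, had -0.60 (adjusted p = 0.00022) and the zinc finger gene Zfp395 -0.76 (adjusted p = 0.000277), while the ETS factor Elf1 had -0.06 (adjusted p = 0.843) with overlapping groups. Of 23 ubiquitin and proteasome members, 13 were lower and 10 not called (median -0.40). Trim13, a ubiquitin ligase of the endoplasmic reticulum, was the nearest to 0 (0.04, adjusted p = 0.878). Of 9 lysosome and autophagy members, 5 were lower and 4 not called (median -0.45). Lrp10 and Clu were among the lower ones, and the lysosomal protease Ctsb was among those not called.

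Cell division and RNA processing genes had medians closer to 0. Of 12 cell cycle members, 4 were lower, 3 higher and 5 not called (median -0.30), and the 3 higher were Rgcc, Cdkn3 and Ajuba. Diaph3, a formin of cytokinesis, had 1.41, 1.11 and 1.53 CPM against 5.66, 1.85 and 3.59 (-1.46, adjusted p = 0.00821), with WT libraries that varied widely. The retinoblastoma gene Rb1 had 3.81, 5.55 and 3.61 CPM against 9.81, 4.47 and 6.23 (-0.66, adjusted p = 0.0833), and was called lower without WT B (-0.89, adjusted p = 0.0197) or knockdown B (-0.87, adjusted p = 0.0347). Cdca2, a phosphatase-targeting protein of mitotic chromosomes, had 0.01 (adjusted p = 0.946) and lay above the median shift by 0.39 (adjusted p = 0.0306). Of 14 RNA processing members, 8 were lower, 1 higher and 5 not called (median -0.30). Acin1, a nuclear splicing factor, had -0.52 (adjusted p = 0.00021), and Nop9, of ribosomal RNA maturation, had -0.65 (adjusted p = 4.26e-05). Wbp4, a spliceosome component, had 0.13 (adjusted p = 0.552). Of 11 DNA repair and telomere members, 5 were lower and 6 not called (median -0.20). Ccar2, which binds a deacetylase in the DNA damage response, had -0.38 (adjusted p = 0.00332). Parp4, of the poly-ADP-ribose polymerase family, had 5.69, 8.21 and 6.54 CPM against 15.8, 12.9 and 13.0 (-1.03, adjusted p = 0.00077), and Pinx1, a telomerase inhibitor, had 0.01 (adjusted p = 0.967).

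**Figure D5:**
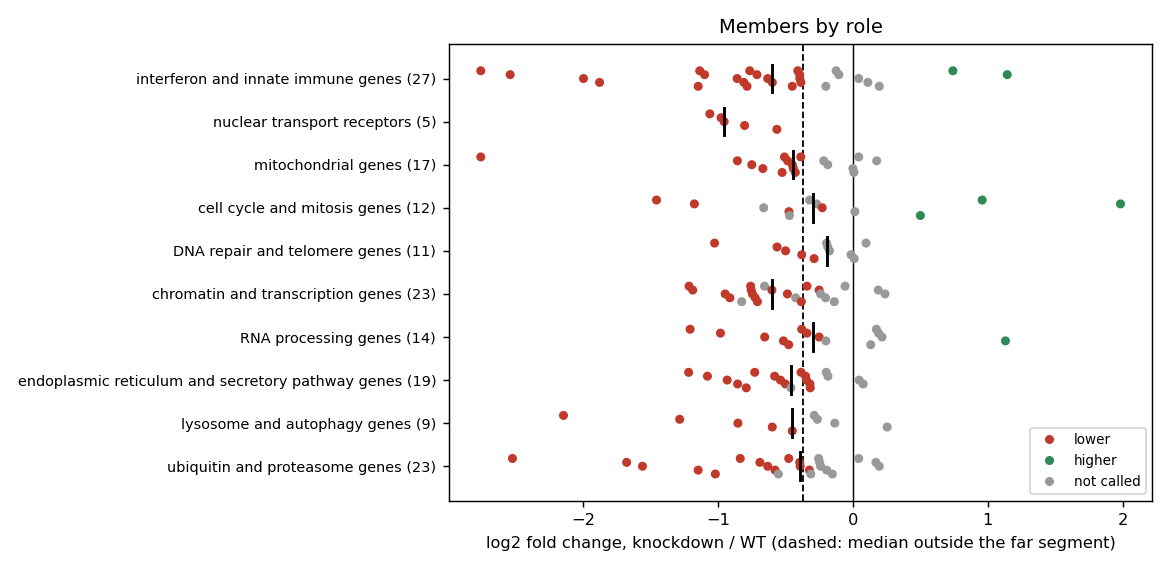
Log2 fold change of knockdown over WT (x axis) for the members of each of 10 role lists (rows, with member numbers), coloured by call, with a black tick at each list's median; a gene can stand in more than 1 list. The list medians lie between -0.96 for nuclear transport receptors and -0.20 for DNA repair genes, all left of 0.

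Longer members tended to be somewhat lower. Spearman's rank correlation of log2 fold change with annotated length was -0.173 over 235 members, -0.504 over the 23 far-segment members and -0.064 over 9406 genes of other chromosomes, all measured in the same libraries and given without a p. Far-segment medians were -0.74 for genes up to 3334 bases, -1.05 up to 5871 bases and -1.18 beyond. Outside the segment they were -0.32, -0.34 and -0.49, and on other chromosomes 0.02, 0.06 and -0.04. In each length class the far-segment median was below the one outside, over 8, 8 and 7 far-segment genes. Any part of length in the shift was not tested. With mean abundance, the rank correlation was 0.036 over all members and 0.376 in the far segment.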

How the data were processed

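RNA was sequenced from 6 BV2 libraries, 3 labelled SMEK1 knockdown and 3 labelled WT. The authors deposited whole-number counts per gene for 54532 genes, and FPKM values that equal the count divided by gene length and a constant of each library. The build was GRCm38 (mm10), per the submitters' processing notes. The aligner and counting program, like the annotation and any use of strand, were not given in the sources used here. Without strand, a read from either member of an overlapping gene pair cannot be assigned, and 49 members overlap another counted gene. Besides those flagged above, they include Psme1, Apex1, Tox4, Acin1, Ubac2, Xpo7, Ccar2, Rbm26, Trim13, Wbp4, Elf1 and Tmtc4. Library totals of 18036591 to 21131557 counts set the precision.

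Counts were fitted in edgeR 4.0.16 (R 4.3.3) with filterByExpr, TMM scaling and the quasi-likelihood test over 12269 genes, 4918 of which were called at a Benjamini-Hochberg adjusted p under 0.05. All adjusted p-values are over those genes and, unless another tool is named, from this fit. A repeat with the offset of -0.37 tested each gene against the median of members outside the far segment. Alternatives used DESeq2 1.42.0, limma 3.58.1 on log2 FPKM with a pseudocount of 0.1 or 1, voom, other scalings and filters, a replicate block and each library left out. The scripts were tested on simulated data.

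Members and role lists were chosen with earlier results of these data known. Genes named are every far-segment member, the 8 lowest and 8 highest others with a mean of at least 5 CPM, the 6 with the highest mean FPKM, those at the edges of the rule and, per role list, up to 3 with the smallest adjusted p and the 1 nearest 0. The values of 3 members that this rule covers are not reported here, although they remain in all counts and medians. Among genes described with values, Arhgef40, Psme2, Irf9, Ripk3, Phf11a, Phf11b, Phf11d, Kpna3, Trim35, Entpd4b, Rb1, Lcp1, Tdrd3 and Diaph3 fall outside that rule and were chosen after their values were seen.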

Additional observations from a re-analysis of the deposited data

How the results depend on the processing

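No member that was called in the reported fit or in an alternative had opposite signs in that pair of fits. On library totals, 18 of the 235 members changed sign, 0 of them called, which left 178 below 0 in place of 196. Scaling to library totals moved the median log2 fold change of members outside the far segment to -0.21 and that of genes up to 40 Mb to 0.106, and gave 97 lower and 21 higher members. The first median was also -0.34 with a filter of 1 count in any library (-0.3405) or with upper-quartile scaling (-0.3425), and -0.319 by limma on log2(FPKM + 1), which put the far segment at -0.765. Restricting members to a mean of at least 10 CPM left 5 higher. Leaving out each library in turn gave -0.39 to -0.346 for the median outside, 109 to 129 lower and 8 to 13 higher members, and 29 to 37 above and 47 to 68 below the median shift. With 3 libraries a group, small differences in low-count genes were not detectable.

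Over all members, 205 of the member-by-setting comparisons lost a call and 62 gained one, while 3456 stayed on the same side of the threshold. Library totals ended 35 calls and made 11. The calls made included higher ones for Lgals3, Reep4, Trim35 and Ppp3cc. Among the genes named, the calls ended included Xpo7 (adjusted p = 0.0842), Nedd8 (0.0535), Dis3 (0.0578), Kpna3 (0.0752), Lcp1 (0.104), Commd6 (0.116) and Rpl36a-ps1 (0.126). Leaving out members that overlap another gene, chosen after seeing the data, gave 107 lower and 7 higher.

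Deviations from the group means correlated at -0.361, -0.326 and 0.00247 for same-letter libraries A, B and C. Pairs with different letters ranged from -0.129 (knockdown B with WT C) to 0.412 (knockdown B with WT A). With 3 libraries a group these deviations depend on each other, so the values cannot decide whether the letters pair libraries. With the replicate block, 101 members were lower and 8 higher, and 44 lay below and 28 above the median shift.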

Other observations

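Non-coding genes and pseudogenes of the same span that reached 2 CPM, which the member rule left out, were few. Outside the far segment there were 12, with a median log2 fold change of -0.15, 3 of them lower and 0 higher. In the far segment there were 3, all lower, with a median of -0.75. One of these, Gm5854, had overlapping groups, at 56.4, 51.6 and 60.1 CPM in the knockdown libraries against 56.5, 122 and 103 in the WT libraries. Another, likewise named after its values were seen, is Mir17hg (115042879 to 115046727), the host transcript of the miR-17 to miR-92 cluster. It had 27, 56 and 43 counts in the knockdown libraries against 162, 115 and 90 in the WT libraries. Its log2 fold change was -1.83 (SE 0.26, adjusted p = 0.000229, edgeR's quasi-likelihood test).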
